A study of Mus musculus with 3 samples.

Results

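The set holds 10 genes that act in nuclear extrusion: the GTPases Rac1 and Rac2, the formins Diaph1 and Diaph3, the cytokinesis kinase Cit, the nonmuscle myosin heavy chains Myh9 and Myh10, the nuclear exportin Xpo7, the ubiquitin ligase Trim58 and the ligase subunit Maea. They were chosen by their known roles, with earlier results of these data known. All 10 were found by symbol among 21523 protein-coding genes of the mm10 RefSeq gene table on the autosomes and chromosome X. Nucleosome positions were counted in 2 regions of each gene. The gene ends are the windows within 500 bp of both ends. The span is the gene with 5 kb on each side.

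Micrococcal nuclease cuts the linker DNA between nucleosomes, and sequencing of the DNA that is left maps where nucleosomes sit. The series has 3 libraries, from mouse erythroblasts on culture days 0, 1 and 2, and asks how nucleosomes change during terminal erythropoiesis. Cells without the surface marker Ter119 were taken from the livers of 6 fetuses and grown in IMDM with fetal bovine serum, erythropoietin, BSA and insulin. All 3 groups share this medium. The labels used here name no genotype, strain or fetal age, and do not say whether the 3 days came from the same culture. With 1 library per day no difference between days has a replicate check, no test was made, and every value describes that library. Intervals given with numbers of positions cover counting error only.

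At the end of red cell formation in mammals the erythroblast expels its nucleus. The nucleus moves to the side of the cell, an actin ring forms behind it with the help of Rac GTPases and formins, and nonmuscle myosin supplies contractile force, much as in cytokinesis. Chromatin condenses before this step and part of the histones leave the nucleus, which involves Xpo7, while Trim58 acts on the motor dynein and Maea is also known for the contact between erythroblasts and macrophages.

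The numbers of positions listed, all of them 140 bp wide, were 3735952 (day 0), 2999502 (day 1) and 4474045 (day 2). The summit value of a position was read as the authors' coverage signal at its centre. Relative occupancy is the sum of the summit values per bp of a region, relative to the autosomes of the library, so that 1 is the autosome mean. The day 1 list was the shortest, although the step of its values gave a depth 2.35 times that of day 0. Day 1 therefore differs from the other days in depth and in listing as well as in time, and these cannot be told apart. Of the contrasts, only day 0 to 2 does not use that library. A change of 2 times in relative occupancy, with at least 3 positions on each day, was used as a rule of size.

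Start sites with a promoter entry in the RefSeq table (GRCm38.p6, the coordinates of mm10) were found for 5 of the 10 genes: Cit, Trim58, Myh9, Myh10 and Diaph3. Their sequences show how much of the DNA before each start lay under a called position. Each is written 5′ to 3′ on the strand of the gene, from 250 bp before the start to 30 bp from it. Capitals mark bases within the 140 bp of a position and lower case marks bases under none, to within 1 bp, since the lists do not say how coordinates are counted. Cit (chr5:115845406-115845685, plus strand) is given for day 0 and for day 2, and for the other 4 the capitals mark bases covered on at least 1 of the 3 days. Trim58 lies at chr11:58640215-58640494 (plus), Myh10 at chr11:68691665-68691944 (plus), Diaph3 at chr14:87141195-87141474 (minus) and Myh9 at chr15:77842146-77842425 (minus).
Cit, day 0: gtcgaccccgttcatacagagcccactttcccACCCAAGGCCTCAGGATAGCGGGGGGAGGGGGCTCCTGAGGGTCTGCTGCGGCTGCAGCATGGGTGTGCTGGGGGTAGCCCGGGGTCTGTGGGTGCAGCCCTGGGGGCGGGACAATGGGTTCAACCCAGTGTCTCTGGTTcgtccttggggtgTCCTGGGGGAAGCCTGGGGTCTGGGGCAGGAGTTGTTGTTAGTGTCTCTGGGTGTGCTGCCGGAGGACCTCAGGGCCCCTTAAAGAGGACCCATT
Cit, day 2: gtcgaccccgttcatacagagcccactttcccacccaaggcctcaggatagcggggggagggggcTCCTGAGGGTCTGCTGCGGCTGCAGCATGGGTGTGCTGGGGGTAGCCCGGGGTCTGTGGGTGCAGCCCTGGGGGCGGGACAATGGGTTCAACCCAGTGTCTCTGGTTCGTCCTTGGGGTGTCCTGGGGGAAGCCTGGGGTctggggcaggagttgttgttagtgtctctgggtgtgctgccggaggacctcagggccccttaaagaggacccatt
Trim58: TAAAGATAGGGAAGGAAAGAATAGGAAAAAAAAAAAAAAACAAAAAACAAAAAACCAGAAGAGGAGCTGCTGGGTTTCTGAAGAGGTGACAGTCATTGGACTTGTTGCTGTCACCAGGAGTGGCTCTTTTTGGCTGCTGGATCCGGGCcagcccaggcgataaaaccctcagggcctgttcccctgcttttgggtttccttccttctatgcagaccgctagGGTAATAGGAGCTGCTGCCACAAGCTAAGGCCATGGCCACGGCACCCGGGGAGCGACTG
Myh10: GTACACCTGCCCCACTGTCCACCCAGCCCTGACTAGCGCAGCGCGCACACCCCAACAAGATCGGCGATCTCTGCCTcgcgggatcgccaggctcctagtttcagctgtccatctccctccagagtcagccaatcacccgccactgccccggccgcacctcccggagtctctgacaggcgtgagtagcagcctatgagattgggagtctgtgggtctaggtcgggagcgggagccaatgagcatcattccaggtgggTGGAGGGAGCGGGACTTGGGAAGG
Diaph3: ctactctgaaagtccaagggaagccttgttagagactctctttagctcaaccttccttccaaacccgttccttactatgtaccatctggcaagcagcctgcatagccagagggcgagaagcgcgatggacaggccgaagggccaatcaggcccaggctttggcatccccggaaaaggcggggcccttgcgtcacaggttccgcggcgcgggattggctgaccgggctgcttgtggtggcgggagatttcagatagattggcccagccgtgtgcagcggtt
Myh9: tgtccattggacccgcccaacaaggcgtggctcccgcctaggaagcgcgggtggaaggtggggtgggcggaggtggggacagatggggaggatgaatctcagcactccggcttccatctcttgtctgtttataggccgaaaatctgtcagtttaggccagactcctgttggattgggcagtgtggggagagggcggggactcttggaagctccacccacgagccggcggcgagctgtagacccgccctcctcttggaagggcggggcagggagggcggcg

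Over the 3 days together, the 5 starts fell into 2 patterns. At Myh9 and Diaph3 none of the 280 printed bases lay under a position on any day, and at Myh10 100 did, from the outer edge before the start and from 6 bp after it. At Cit 235, 230 and 140 of the bases were covered on days 0, 1 and 2, and at Trim58 197, 0 and 199, so the patterns do not hold on each day. Positions were sparse over the whole span of Diaph3, where they covered 17.4%, 11.5% and 20.8%. At Myh9 they covered 61.7%, 69.0% and 62.1% of the span. In the window from 200 bp before to 50 bp after the start, Myh9, Myh10 and Diaph3 had no centre on any of the 3 days. By day, 3, 4 and 3 of the 5 starts had none, against 44.9%, 43.8% and 35.7% of 13118 starts of protein-coding genes with a centre within 500 bp on each day. On all 3 days together the share was 18.7% of these starts. This window was chosen with the values in view.

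Myh9 encodes the heavy chain of nonmuscle myosin IIA. The centres on either side of its start were 782, 520 and 715 bp apart on days 0, 1 and 2. The median distance over all 13118 starts was 387, 352 and 307 bp, and the upper quartile 697, 640 and 530 bp, so Myh9 lay above the upper quartile on days 0 and 2. The first centre inside the gene lay 204 bp from the start on day 0, with a summit value of 13.7. On day 1 it lay at 124 bp with 15.6, and on day 2 at 154 bp with 8.15. Inside this start a row of positions was listed on each day, at 204 and 404 bp on day 0, at 124, 259 and 364 bp on day 1 and at 154, 334 and 444 bp on day 2.

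Myh10, the heavy chain of nonmuscle myosin IIB, had its nearest centres 253 bp before and 286 bp after the start on day 0. They lay 244 bp before and 76 bp after it on day 1, and 284 bp before and 226 bp after it on day 2. The day 1 position at 76 bp had a summit value of 9.39 and no counterpart within 100 bp on the other days. The strongest position near this start was the one 284 bp before it on day 2, with a summit value of 16.3.

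Diaph3, a formin that nucleates and extends actin filaments, had few positions near its start. The first inside the gene lay at 153, 178 and 113 bp on the 3 days, with summit values of 9.15, 8.42 and 13.8, and the next at 341, 343 and 358 bp, with 6.86, 5.18 and 13.8. Both summit values were highest on day 2. The first centres lay more than 20 bp apart between days. Before the start the nearest centre was 932, 437 and 907 bp away.

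Cit encodes citron kinase, which acts at the cleavage furrow of dividing cells. On days 0 and 1 a position lay on the start itself, with its centre 5 bp after it on day 0 (summit value 9.15) and 5 bp before it on day 1 (8.42). The next centre followed at 185 and 180 bp. On day 2 neither was listed. A position with its centre 115 bp before the start was listed on day 2 (summit value 10.0), as it was on day 1 (10.7). On day 2 it was followed by none until 385 bp, a distance of 500 bp. The distance across the start was 153 bp on day 0 and 185 bp on day 1. A distance on day 2 at least 3 times that of day 0 was found at 5.37% of the 13118 starts, a threshold set with this value in view.

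Trim58, a ubiquitin ligase that binds dynein, showed a gap on day 1 only among the 3 libraries. Positions lay 172 bp before and 51 bp after the start on day 0, with summit values of 6.10 and 13.7, and 174 bp before and 41 bp after it on day 2, with 6.26 and 6.88. On day 1 the nearest centres were 694 bp before and 156 bp after it, a distance of 850 bp against 223 bp on day 0. Over all starts, 8.09% had a distance on day 1 at least 3 times that of day 0.

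**Figure D1:**
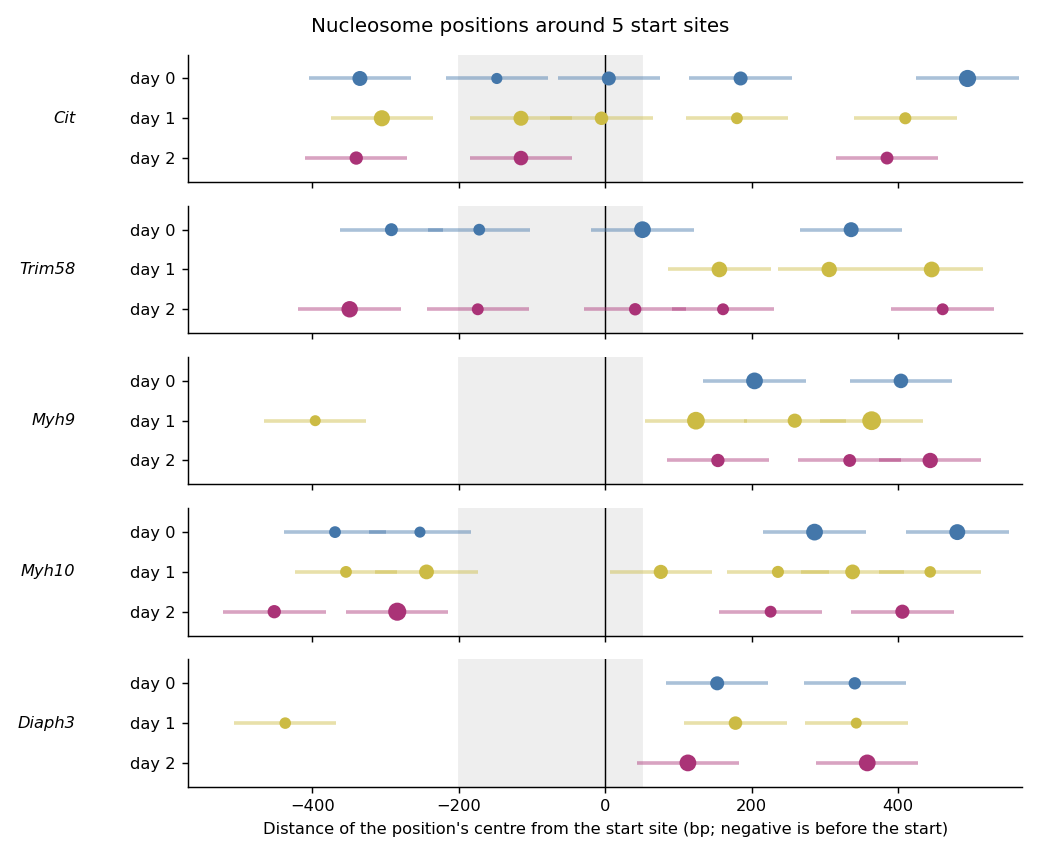
Positions within 500 bp of 5 start sites on days 0, 1 and 2. The x axis is the distance of the centre from the start in bp, bars are the 140 bp of each position, the area of a dot follows its summit value, and grey marks 200 bp before to 50 bp after the start. Myh9, Myh10 and Diaph3 have no dot in the grey window, and Cit has none between 115 bp before and 385 bp after the start on day 2.

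The letters of the 300 bp promoters (250 bp before to 50 bp after the start) differed too. The GC share was 64.3% at Cit, 52.3% at Trim58, 62.7% at Myh10, 59.3% at Diaph3 and 64.7% at Myh9, against a median of 56.3% over 17274 promoters. CpG was less depleted at Diaph3, Myh9 and Myh10, with observed-to-expected ratios of 0.687, 0.636 and 0.612, than at Trim58 (0.397) and Cit (0.266), where the median of all promoters was 0.585. The 3 starts without a centre in the window were thus those with the higher ratios. With 5 starts this is a description.

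Motifs of factors that act in erythroblasts were searched on both strands of these 300 bp, as letters only. A GATA motif (AGATAA as well as AGATAG, and also TGATAA as well as TGATAG) was found at Trim58, beginning 247 bp before the start, and at Diaph3, beginning 1 bp before it. Of all promoters 26.4% hold such a motif. The KLF box CCNCNCCC was found 3 times at Cit, where 2 of the matches overlap, 2 times at Myh10, once at Diaph3 and 4 times at Myh9, and 56.4% of promoters hold it. The E-box CANNTG, present in 68.8% of promoters, was found at Myh10 (3 times), Diaph3 and Myh9, and TATAAA (13.4%) at Myh9. A match does not show that a factor binds there.

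Across whole spans the 10 genes differed from each other by more than the days did. Rac2, Rac1 and Myh9 had the highest relative occupancy in each library, and Diaph3 the lowest. The full order on day 0 was Rac2 (4.13), Rac1 (3.59), Myh9 (3.50), Maea (2.72), Myh10 (2.69), Cit (2.65), Trim58 (1.76), Diaph1 (1.74), Xpo7 (1.61) and Diaph3 (0.719). Within the runs Rac1 and Myh9, Maea to Cit, and Trim58 and Diaph1, neighbours lay within 0.1 of each other. The median over all 21523 genes was 1.77, 1.83 and 1.61 on the 3 days, so 6 of the 10 lay above it on every day.

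**Figure D2:**
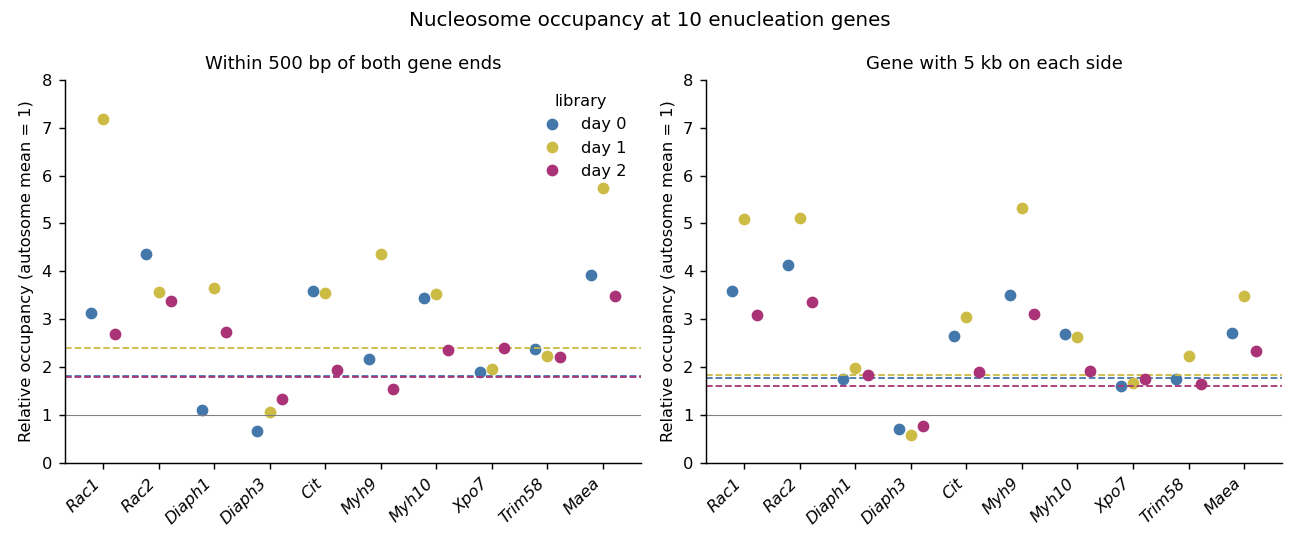
Relative occupancy of each gene (y axis, autosome mean = 1, grey line) in the 3 libraries, within 500 bp of both gene ends (left) and over the gene with 5 kb on each side (right). Dashed lines are the medians of all 21523 protein-coding genes per day. Rac1 on day 1 is the highest value at the gene ends (7.18), and Diaph3 stays below 1 on all days over the span.

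The genes of the set differed in the size and sign of their change between days. Over spans, 0 of 10 genes differed by 2 times or more in either direction in any contrast, where 2% of 19744 genes were higher and 7.02% lower from day 0 to 1, 10.4% and 0.643% from day 1 to 2, and 6.93% and 1.92% from day 0 to 2. The median log2 change of the 10 genes was 0.25, -0.52 and -0.20 in these contrasts, and that of all genes 0.16, -0.26 and -0.14. At the gene ends 9 of 10 genes had at least 3 positions on each day, since Diaph3 had 2 on day 0. From day 0 to 1, 3 of the 9 were higher by 2 times (16.2% of 14093 genes) and 0 lower (1.3%). From day 1 to 2, 0 were higher (0.596%) and 2 lower (19.8%). From day 0 to 2, 1 was higher (4.23%) and 0 lower (6.51%). The genes past the size rule were Rac1, Myh9 and Diaph1. Scaled to the median gene instead of the autosomes, the numbers of all genes higher and lower at the ends were 705 and 724, 653 and 471, and 843 and 642, in place of 2288 and 183, 84 and 2787, and 596 and 917. Over spans that scaling gave 1749 and 197 in place of 1368 and 379 for day 0 to 2, and 2825 and 8 in place of 2050 and 127 for day 1 to 2. The median log2 change at the gene ends was 0.04, -0.58 and -0.22, against 0.45, -0.56 and -0.11 for all genes.

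**Figure D3:**
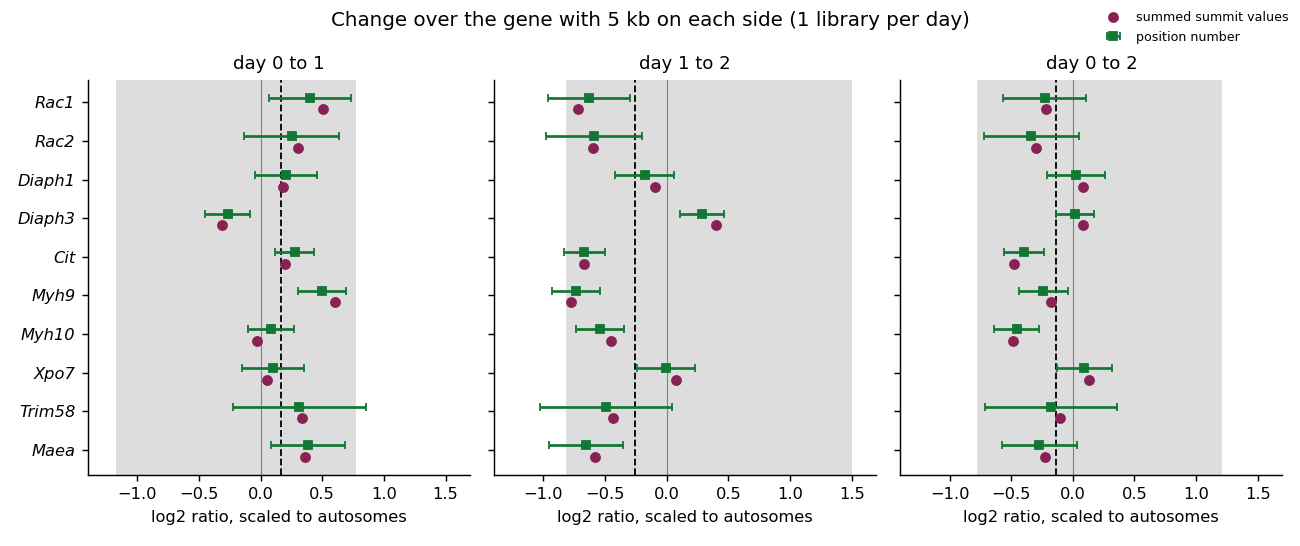
Log2 ratio between days over the gene with 5 kb on each side, for the number of positions (squares, with exact 95% counting intervals) and the summed summit values (circles), both scaled to the autosomes. The dashed line is the median of all 19744 genes and grey the range from their 5th to 95th percentile. Cit and Myh10 lie lowest from day 0 to 2, at -0.47 and -0.48 for summed values.

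Long genes were set beside the longest of 5 length classes, within which lengths still differ widely. It held 3949 genes of 63.4 to 2390 kb, among them Diaph1, Diaph3, Cit, Myh9, Myh10 and Xpo7. The median log2 change of this class was -0.13, 0.14 and 0.01 in the 3 contrasts. Of these 6, 5 were below that median from day 1 to 2, namely Cit (-0.67), Myh9 (-0.78), Myh10 (-0.46), Diaph1 (-0.10) and Xpo7 (0.08), and Diaph3 (0.40) was above it. The same 5 were above the median from day 0 to 1, and Diaph3 (-0.32) was below it. Both contrasts use the day 1 library. From day 0 to 2 Cit (-0.47), Myh9 (-0.17) and Myh10 (-0.48) were below the median. Diaph1 (0.08), Diaph3 (0.08) and Xpo7 (0.13) were above it.

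Cit and Myh10, 2 genes of the cytokinesis machinery, had the lowest day 2 values relative to day 0. Cit (chr5:115845224-116008953, 164 kb) had 646, 629 and 584 positions in its span and a relative occupancy of 2.65, 3.04 and 1.91. Its day 2 value was thus the lowest and its day 1 value the highest, although the log2 change from day 0 to 1 was -0.14 among positions of summit value 10 and above. The ratio of position numbers from day 0 to 2, divided by that of the autosome totals, was 0.761 (exact 95% interval 0.679 to 0.853), and the log2 change in summed values -0.47, at percentile 16.8 of all genes. Over the 5 settings it lay between -0.80 and -0.32, the lowest among positions with summit values from 10 upward. That cut is the same value in each library, while the median summit value of the lists was 7.62, 6.80 and 6.26. It therefore keeps a different part of each list. The median log2 change of all genes over spans at this cut was 0.17, -0.13 and -0.01 in the 3 contrasts.

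Cut into 10 kb bins, Cit was lower on day 2 than on day 0 in 17 of 17 bins, and lower than on day 1 in 17 of 17. From day 0 to 1 it was higher in 11 and lower in 6. The lowest day 2 bin had a relative occupancy of 1.16. At the gene ends Cit had 9, 8 and 6 positions and a relative occupancy of 3.59, 3.54 and 1.95, a log2 change of -0.88 from day 0 to 2. This drop lay mainly at the upper end, where the summed summit values were 51.8, 26.2 and 16.9 in 5, 4 and 2 positions. At the lower end they were 34.3, 38.5 and 30.6. The start of the promoter entry lies inside the gene, within that lower window. Sums at single ends, here and below, are not scaled to the library, unlike relative occupancy. A day 1 sum stands for a higher relative occupancy than the same sum on the other days. In the Rac1 bin that begins 5 kb from the lower gene end, sums of 465, 447 and 448 gave 3.88, 4.89 and 3.68.

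Myh10 (chr11:68691915-68816626, 125 kb) had 513, 438 and 444 positions and a relative occupancy of 2.69, 2.64 and 1.92. Days 0 and 1 were close, and day 2 was lower. Among positions of summit value 10 and above, day 1 was the lowest instead, with log2 changes of -1.09 from day 0 to 1 and 0.16 from day 1 to 2. Its scaled ratio of position numbers from day 0 to 2 was 0.729 (0.640 to 0.829) and its log2 change -0.48, at percentile 15.9. All 13 bins of 10 kb were lower on day 2 than on day 0. It lay between -0.93 and -0.33 over the 5 settings. At its ends Myh10 had 9, 8 and 7 positions and a relative occupancy of 3.44, 3.52 and 2.36. From day 0 to 2 the upper end gave the larger difference. The summed values, not scaled to the library, were 44.98, 15.9 and 17.5 there, while the lower end, its start, had 37.4, 48.6 and 40.03.

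Myh9 (chr15:77760585-77842175, 81.6 kb) differed from Myh10 in that day 1 stood above both other days. It had 417, 473 and 419 positions in its span and a relative occupancy of 3.50, 5.33 and 3.11. The scaled ratio of position numbers was 1.41 (1.23 to 1.61) from day 0 to 1, 0.5999 (0.525 to 0.686) from day 1 to 2, and 0.846 (0.737 to 0.971) from day 0 to 2. For Myh10 the same ratio from day 0 to 1 was 1.06 (0.932 to 1.21). All 9 bins of Myh9 were higher on day 1 than on day 0 and lower on day 2 than on either day.

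Of the 6 members with at least 9 full bins, 3 (Cit, Myh10 and Myh9) were lower in every bin on day 2 than on day 0 and 0 higher in every bin. Among 2284 genes with as many bins and no empty bin, these shares were 13.4% and 3.98%, and 56.9% of single bins were lower. Between days 0 and 1, 1 member (Myh9) was higher in every bin and 0 lower, against 7.27% and 7.84% of these genes. Between days 1 and 2, 0 were higher and 2 (Cit and Myh9) lower in every bin, against 3.24% and 11.7%. Neighbouring bins are not independent, and bins were scaled to the autosomes only. At Myh9 the log2 change of the whole span from day 0 to 2 was -0.17, -0.02 when scaled to the median gene, and 0.29 among the positions of summit value 10 and above. At the ends Myh9 had 5, 8 and 5 positions and a relative occupancy of 2.17, 4.35 and 1.54. Its log2 changes there, 1.01 from day 0 to 1 and -1.50 from day 1 to 2, passed the size rule, and were 0.57 and -0.94 at the weakest setting. The interval of the scaled position ratio from day 1 to 2 at the ends, 0.109 to 1.47, includes 1.

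**Figure D4:**
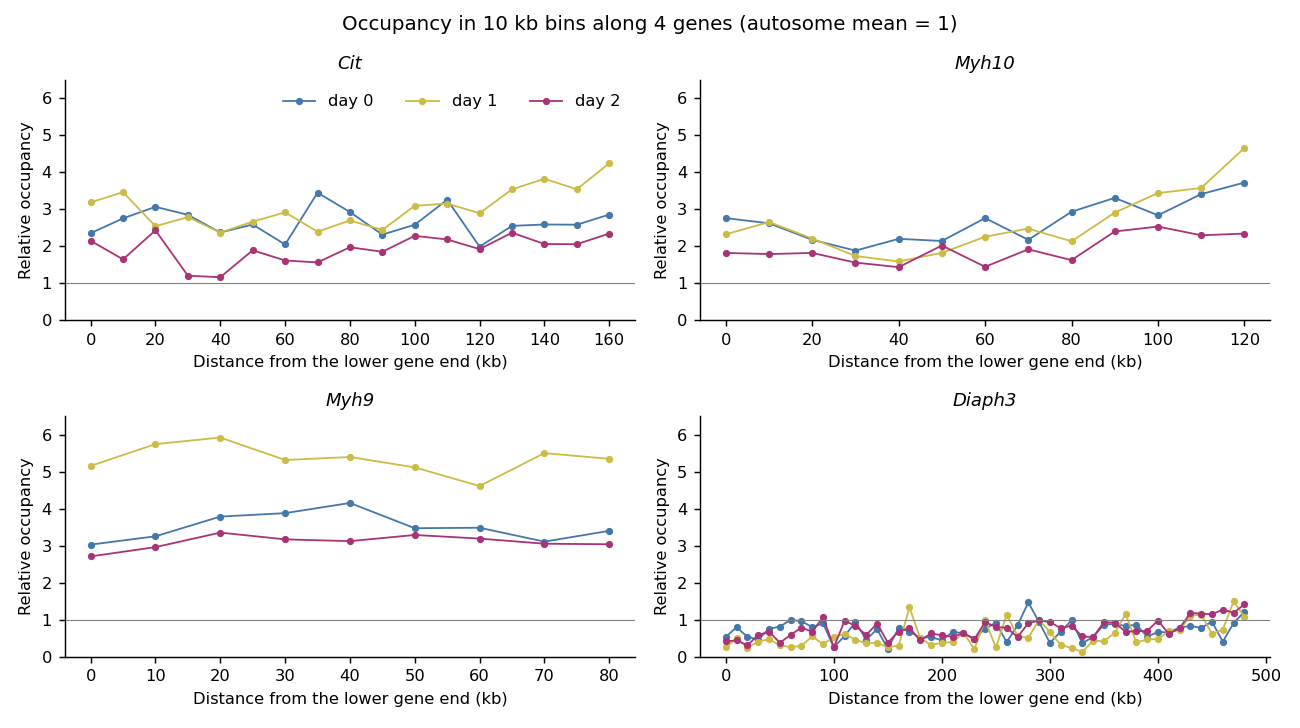
Relative occupancy (y axis, autosome mean = 1) in full 10 kb bins along Cit, Myh10, Myh9 and Diaph3 (x axis, distance from the lower gene end in kb), with 1 line per library. Day 2 lies below day 0 in each bin of Cit (17), Myh10 (13) and Myh9 (9), while the lines of Diaph3 cross.

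The GTPases Rac1 and Rac2 switch actin assembly on when bound to GTP, and Rac2 is the form of blood cells. Rac1 (chr5:143505481-143528031, 22.6 kb) had 148, 157 and 150 positions in its span and a relative occupancy of 3.59, 5.09 and 3.09. Rac2 (chr15:78559169-78572783, 13.6 kb) had 118, 113 and 111 positions and a relative occupancy of 4.13, 5.10 and 3.37. Both were highest on day 1 and lowest on day 2 over the span, but among positions of summit value 10 and above the log2 change from day 0 to 2 was 0.26 at Rac1 and 0.11 at Rac2. From day 0 to 2 the scaled position ratios were 0.853 (0.675 to 1.08) for Rac1 and 0.792 (0.606 to 1.04) for Rac2, and both intervals include 1.

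At the ends these GTPase genes differed on day 1. Rac1 had 9, 12 and 8 positions and a relative occupancy of 3.13, 7.18 and 2.68, whereas Rac2 had 11, 8 and 10 positions and 4.36, 3.58 and 3.38. Day 1 was thus the highest library at Rac1. At Rac2 it lay between the others, but was the lowest when scaled to the median gene, with log2 changes of -0.72 from day 0 to 1 and 0.48 from day 1 to 2. Most of the Rac1 difference came from its upper end, where the summed summit values were 28.7, 75.6 and 24.9, and where positions with summit values up to 22.6 were listed on day 1. The highest there were 9.15 on day 0 and 7.51 on day 2. The log2 changes of Rac1, 1.20 and -1.42, kept their signs with windows of 1000 bp, each position counted once and scaling to the median gene. They reached only 0.68 and -0.82 at the weakest, with windows of 1000 bp. With summit values of 10 or more Rac1 had too few positions at its ends for a value. Its position numbers alone gave 1.66 (0.641 to 4.45) from day 0 to 1. The span of Rac1 touches Daglb, and that of Rac2 no other coding gene.

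The formins nucleate unbranched actin filaments. Diaph3 (chr14:86655357-87141247, 486 kb) is the longest member and had 619, 414 and 745 positions in its span. Its relative occupancy was 0.719, 0.577 and 0.762, below the autosome mean in each library and near percentile 25 of all genes. Positions covered 17.4%, 11.5% and 20.8% of the span, and the longest stretch without a centre was 5870, 13370 and 7097 bp. Day 1 was the lowest library here, in contrast to Myh9 and the Rac genes. The scaled position ratio was 0.832 (0.732 to 0.943) from day 0 to 1, 1.22 (1.08 to 1.38) from day 1 to 2 and 1.01 (0.910 to 1.13) from day 0 to 2. Of 49 bins, 34 were lower on day 1 than on day 0 and 37 higher on day 2 than on day 1. At its ends it had 2, 3 and 3 positions, too few for a change, with 0, 0 and 1 of them at the lower end.

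Diaph1, the formin mDia1, lies on chromosome 18 from 37843601 to 37935622 (92.0 kb). It had 274, 254 and 331 positions and a relative occupancy of 1.74, 1.98 and 1.84 over its span, with a scaled position ratio from day 0 to 2 of 1.02 (0.864 to 1.20). At its ends it had 3, 7 and 8 positions and a relative occupancy of 1.11, 3.65 and 2.74. Day 0 was the low library. This was the member past the size rule from day 0 to 2, with a log2 change of 1.30, at percentile 98.4. The value was 0.56 with windows of 1000 bp, and the interval of the scaled position ratio, 0.539 to 13.1, includes 1. On day 0 the 3 positions lay on the inner side of both ends, and the nearest centre below the lower end was 1115 bp away, against 60 and 178 bp on days 1 and 2. The span, with its 5 kb on each side, is touched by 25 other coding genes. Among them are the gamma protocadherin cluster, whose genes overlap each other, and Hdac3. Whether the windows within 500 bp of the gene ends reach any of them was not tested.

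Xpo7, an exportin that carries proteins out of the nucleus, lies at chr14:70662126-70770864 (109 kb). It had 291, 251 and 369 positions in its span and a relative occupancy of 1.61, 1.66 and 1.76. The scaled position ratio from day 0 to 2 was 1.07 (0.913 to 1.25), an interval that includes 1. The longest stretch without a centre measured 5973, 4915 and 1730 bp in the 3 libraries, centred 69.1, 68.8 and 69.0 kb from the lower gene end. This stretch was thus at nearly the same place on every day and shortest on day 2, whose list was the longest. The 10 kb bin that begins 65 kb from the lower gene end had 8, 12 and 19 positions. Its relative occupancy was 0.459, 1.24 and 0.980, so day 1 was the highest there. At the ends Xpo7 had 6, 5 and 7 positions and a relative occupancy of 1.91, 1.97 and 2.41. Its log2 change there from day 0 to 2 was 0.34, and -0.07 at the lowest of the settings.

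Trim58 (chr11:58640465-58652404, 11.9 kb) had 60, 60 and 63 positions in its span and a relative occupancy of 1.76, 2.22 and 1.64. Its scaled position ratios all had intervals that include 1. At its ends it had 7, 4 and 8 positions and a relative occupancy of 2.39, 2.23 and 2.20. The day 1 gap at its start stood beside unscaled summed summit values of 38.1, 35.0 and 38.8 in that window. On day 1 this sum came from 3 positions inside the start with values of 11.3 to 12.0. Being unscaled, the 3 sums do not show equal relative occupancy. The upper end of Trim58 had 19.1, 5.83 and 15.0.

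Maea, a subunit of the CTLH ubiquitin ligase, lies at chr5:33335572-33373294 (37.7 kb). It had 183, 192 and 180 positions in its span and a relative occupancy of 2.72, 3.49 and 2.33. The scaled position ratio was 1.30 (1.06 to 1.61) from day 0 to 1 and 0.635 (0.515 to 0.782) from day 1 to 2. As log2 changes these are 0.38 and -0.66, where the medians of all genes were 0.21 and -0.34. At the ends it had 9, 9 and 10 positions and 3.92, 5.73 and 3.48, so day 1 was the high library in both regions. Its upper end had summed summit values of 30.9, 63.8 and 37.4, and its lower end 63.0, 40.9 and 47.6, so the ends differed in which day was highest.

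Single positions were seldom placed alike on different days. Of the 3269 positions in the 10 spans on day 0, 17.3% had a day 1 centre within 20 bp (exact Clopper-Pearson 95% interval 16.0 to 18.6%), and 13.8% did after the day 0 centres were shifted by 1000 bp. From day 1 to 2 the share was 19.7% of 2981 (15.0% after the shift), and from day 0 to 2 it was 17.6% of 3269 (14.0%). Taken from the later day, the shares were 19.0% of 2981, 17.3% of 3396 and, for day 2 against day 0, 17.0% of 3396. Over all autosomes they were 13.7% (10.5%), 18.5% (13.8%) and 15.8% (12.2%). Among members Diaph3 had the lowest share from day 0 to 1, 5.82%, and Rac2 the highest, 28.0%. After the shift these values were 3.72% and 19.9%. At Trim58 the share from day 0 to 2 was 26.7% (16.1 to 39.7%) against 11.7% after the shift, and at Myh10 21.1% (17.6 to 24.8%) against 13.0%. Other shares lay below the shifted value, as at Rac1 from day 0 to 1 (19.6% against 26.0%), Maea from day 0 to 2 (15.3% against 18.6%) and Trim58 from day 0 to 1 (10% against 12.5%).

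The median summit value per span ran from 6.10 (Diaph3) to 9.15 (Rac1, Rac2 and Myh9) on day 0, from 5.83 (Diaph3) to 9.39 (Rac1 and Rac2) on day 1, and from 6.26 to 8.13 on day 2. The fuzziness score, in which a higher value means a wider spread of reads, had its highest median on day 1 in each of the 10 genes, as in the whole lists (51.0, 54.5 and 51.0). It ran from 53.0 at Diaph3 to 56.6 at Myh9 on day 1.

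Other genes of the pathway were measured in the same way, as a list of 56 with GTPases and their regulators, actin and cytokinesis genes, dynein subunits, exportins, CTLH subunits and clathrin genes. At the gene ends 52 of them had 3 positions on each day. Between days 0 and 1, 12 of the 52 were higher by 2 times and 0 lower, where 16.2% and 1.3% of all genes were. Between days 1 and 2, 0 were higher and 14 lower, against 0.596% and 19.8%, and between days 0 and 2, 2 and 3, against 4.23% and 6.51%. Their median log2 change lay 0.09 above, 0.12 below and 0.11 above that of all genes. The largest log2 increases between days 0 and 2 were 2.41 at Wasl, which drives branched actin (3, 8 and 8 positions), and 1.76 at Ranbp9, a CTLH subunit (3, 7 and 10). The largest decreases were -1.55 at Anln, the cytokinesis scaffold anillin (8, 7 and 4), and -1.41 at Gid4, a substrate receptor of CTLH (10, 7 and 4).

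Marker genes of erythroid cells, macrophages and hepatocytes gave the following values. Over spans the median relative occupancy was 1.54, 2.08 and 1.72 for 10 erythroid genes, 2.52, 2.46 and 1.84 for 10 macrophage genes and 1.03, 0.685 and 0.955 for 8 hepatocyte genes. Every nucleus carries nucleosomes on these genes, so the lists do not measure which cells were present, and the part of other cells in the results was not tested.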

How the data were processed

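Each library has 1 deposited list of nucleosome positions, with Bowtie2, bedtools and the build mm10 named per the submitters' processing notes. Caller, settings and tool versions were not given in the sources used here. Per the file headers each position has a summit value and a fuzziness score. The deposited summit values were read as a coverage signal from their values, and how they were smoothed or scaled is not stated. The deposited p-values for summit and fuzziness were not used. Summit values lay within 0.01 of whole steps (0.762, 0.324 and 0.626) for 98.5%, 97.4% and 98.7% of positions, which gave the relative depths 1, 2.35 and 1.22, an inference from the values.

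Genes came from the RefSeq table (GRCm38.p6) after entries that start below 3 Mb and repeats of a symbol were left out, 108 together. Position ratios were divided by the ratio of autosome totals, with exact conditional binomial 95% intervals. A ratio of 1 thus stands for the autosomes and not for the median gene. With each position counted once, the median log2 change of all genes over spans was 0.21, -0.34 and -0.18 in the 3 contrasts. Spans were also divided into bins of 10 kb, and genes into 5 length classes. All 10 members are named. For the other pathway genes the rule took the 2 largest changes in each direction at gene ends from day 0 to 2. The members and lists were chosen with earlier results of these data known, and the bins and start-site windows after the values were seen. The span calculation was tested on simulated data, made from the day 0 list thinned by the same share for each day. Chosen genes lost further positions on the simulated day 2. This cannot check the effect of the differences in depth and listing between the libraries. Values of single marker genes are not reported here. Alternatives were windows of 1000 bp, no flanks, each position counted once, summit values of 10 or more, no minimum of positions, scaling to the median gene, and partners within 10 or 40 bp. Python 3.11.15, numpy 2.4.6, pandas 2.3.3, scipy 1.17.1 and matplotlib 3.10.9 were used.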

Additional observations from a re-analysis of the deposited data

How the results depend on the processing

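Relative to all genes, the median log2 change of the members at gene ends was -0.41, -0.02 and -0.11 in the order day 0 to 1, day 1 to 2, day 0 to 2, and over spans 0.09, -0.26 and -0.06. With only summit values of 10 or more it turned to 0.31 at gene ends from day 0 to 1 (Maea the member left), and over spans to -0.14 for day 0 to 1 and 0.20 for day 0 to 2. With each position counted once it turned to 0.15 at gene ends from day 1 to 2. The cause was not tested, and no direction is settled for these medians. The shares of positions with a partner, by construction, were 9.61%, 11.6% and 9.88% within 10 bp and 31.1%, 35.3% and 32.0% within 40 bp.

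Gene-end members past 2 times from day 0 to 1 numbered 3, and 1 with windows of 1000 bp, with each position counted once, or with scaling to the median gene. For day 1 to 2 the 2 lower members became 1 with windows of 1000 bp and 0 with scaling to the median gene. The 1 higher member of day 0 to 2 became 0 with windows of 1000 bp. In all genes that scaling changed the gene-end numbers higher and lower from 2288 and 183 to 705 and 724 for the earliest contrast, and as given above for the others. Over all alternatives the gene-end numbers ranged from 571 to 3465 higher and 8 to 963 lower (day 0 to 1), 37 to 958 and 281 to 3425 (day 1 to 2), and 199 to 1838 and 26 to 1540 (day 0 to 2). Span numbers ranged from 302 to 1479 and 1097 to 1640, 1261 to 2825 and 8 to 1009, and 1072 to 1749 and 197 to 1323. These ranges do not order the settings by share, since the number of genes kept differed. It ran from 1890 to 17735 at the ends and from 12969 to 19744 over spans. The 571 was of 1890 genes (summit values of 10 or more), and the 3465 of 17735 (no minimum of positions). With summit values of 10 or more, Myh10 was past 2 times lower over its span from day 0 to 1 (-1.09) and Diaph3 higher from day 1 to 2 (1.18). Of 237 member values under alternatives, 210 lay within the counting interval around the reported value and 27 outside it, 20 of these with summit values of 10 or more and 7 with scaling to the median gene. Of the 210, 30 came from dropping the minimum of positions, which cannot change the value of a single gene. The gene-end intervals were wide, as at Diaph1 from day 0 to 1 (0.662 to 17.4), so values there could hardly fall outside. The 210 therefore does not measure how stable the values are. No paired analysis was possible because each day has 1 library.

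The number of positions limits the gene ends, where a member had 2 to 12 and every counting interval of a position ratio included 1.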
